A study of Mus musculus with 103 samples.

Results

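Nascent RNA of mouse embryonic fibroblasts during transcription arrest with DRB (5,6-dichlorobenzimidazole riboside) was compared with that of the same kind of cells without the drug. The comparison rests on 3 of the 10 global run-on sequencing (GRO-seq) libraries among the 103 samples of the series, chosen by their labelled treatment. The DRB library came from quiescent C57BL/6 fibroblasts of embryonic day 13.5 with both Ctcf and Wapl floxed, Ctcf(fl/fl) Wapl(fl/fl). These cells had received Adeno-Cre, an adenovirus that expresses Cre recombinase, for 4 h, had rested for 10 days and were then kept in DRB for 3.5 h. The Adeno-Cre cells had the same strain, stage, genotype, virus and rest but no DRB, and 2 libraries of theirs, from clone 1 and clone 2, were pooled by the authors into a single column. Every cell compared had therefore been through Cre treatment for deletion of Ctcf, the insulator protein that stops cohesin, and of Wapl, the factor that releases cohesin from DNA. A washout library, in which 1 day without DRB followed the 3.5 h, and a pooled column of 2 libraries of cells that rested 10 days without virus served as further points of reference. The DRB and washout libraries carry no clone label, so clone and treatment cannot be told apart. Their lab numbers also stand apart from those of the Adeno-Cre libraries. An effect of DRB and a difference between these sets of libraries cannot be told apart either, for any gene.

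RNA polymerase II starts transcription and then pauses a short way downstream of the start, held by DSIF and NELF. The kinase P-TEFb (Cdk9 with cyclin T) phosphorylates these factors and the polymerase, and the polymerase moves into the gene body. DRB inhibits Cdk9, so polymerases already in the gene body run on to the end while new ones stay near the start, and genes transcribed by polymerase I or III are not held at this step. GRO-seq labels the RNA of engaged polymerases with bromouridine in isolated nuclei, and a count over a whole gene body counts RNA of polymerases anywhere in it.

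The deposited values are TPM, a share of the column corrected for gene length, of 20279 genes, and they are not amounts. An equal loss over all genes would leave every share as it was, and the absolute level of nascent RNA was not measured. The DRB column summed to 100000 and the pooled Adeno-Cre column to 200000, so both were brought to a total of 1000000, and all values below are TPM on that scale. The number of reads behind each value was recovered from the step between low values. The DRB column held 1203929 reads in genes, against 2148785 in Adeno-Cre and 7760988 in washout, and the median gene tested had 73 reads in DRB and 83 in Adeno-Cre. A gene was tested if the mean of the DRB and Adeno-Cre values was at least 10, which left 9515 genes. With a single column on each side there was no replicate, no test and no p-value. A gene was called higher or lower if its log2 ratio, DRB over Adeno-Cre with 1 added to both values, was at least 1 in size. Where a fold is given for a gene it is the plain ratio of both values, followed by its 95% exact (Clopper-Pearson) interval, which covers counting error only. The spread between cultures is not in it, and neither are molecules copied by PCR.

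The targeted genes do not check the labels here, because a run-on signal over a whole gene need not be lost when part of the gene is deleted. Ctcf had 16.0 TPM in DRB, 29.7 in Adeno-Cre and 49.1 in untreated cells. Wapal, as the table calls Wapl, had 21.9 TPM in DRB, 40.5 in Adeno-Cre and 80.6 in untreated cells. Both were 1.85-fold lower in DRB than in Adeno-Cre (counting intervals 1.46 to 2.37 and 1.57 to 2.18). The median gene of their length was lower by nearly the same amount, since their log2 ratios lay 0.05 above that median for both.

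In DRB cells 1665 genes (17.5% of those tested) had a share at least 2-fold higher than in Adeno-Cre cells, and 2835 (29.8%) a share at least 2-fold lower. The median log2 ratio was -0.25, with the middle 50% of genes between -1.18 and 0.66. Among the 3047 genes with a mean of at least 50 TPM the split ran the other way, with 1186 higher, 435 lower and a median of 0.68. A few very abundant short RNAs also set the split. When the total was taken without small RNA and histone genes, 1145 genes were higher, 4665 lower and the median was -0.73, and with the median gene set to 0 there were 2159 higher and 2268 lower. The text therefore reads each group against the median of all genes tested. A gene that passed the filter through a high value in only 1 column had to differ, so the counts describe the genes that passed and not all members of a list.

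**Figure D1:**
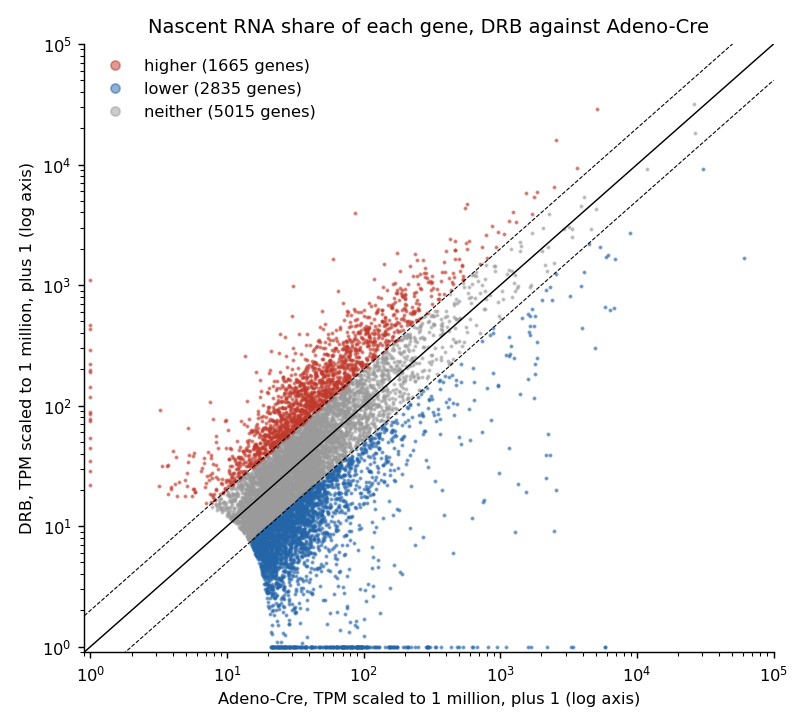
Share of nascent RNA in DRB cells (vertical axis) and in Adeno-Cre cells (horizontal axis) for the 9515 genes tested, as TPM scaled to a total of 1000000, plus 1, on log axes. The solid line marks equal shares and the dashed lines a 2-fold difference, with 1665 genes above the upper line and 2835 below the lower one; points on the lower or left edge had no read in that column.

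The washout library gave a further reference for the same question, with the drug taken away. Compared with washout, DRB cells had 796 genes higher (8.37%) and 2587 lower (27.2%) of the same 9515. Against both Adeno-Cre and washout at once, 689 genes (7.24%) were higher and 2199 (23.1%) lower in DRB. Both comparisons use the same DRB library, so they are not independent. Washout itself differed from Adeno-Cre by at least 2-fold in 666 genes upwards and 616 downwards, with a median log2 ratio of 0.14.

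The ratio decreased with gene length. The median log2 ratio of DRB over Adeno-Cre was 0.30 in the shortest quintile of genes, then 0.30, 0.05 and -0.36, and it was -1.15 in the longest quintile. The gap between the longest and the shortest quintile was -1.46, and with washout in place of Adeno-Cre it was -1.12. Of the 586 genes over 100 kb, 1 was higher and 434 were lower in DRB. Of the 1010 genes of 50 to 100 kb, 15 were higher and 548 lower. The 20 to 50 kb class held 167 higher and 661 lower genes among 2385. Among 3596 genes of 5 to 20 kb the order was reversed, with 844 higher and 685 lower, and among the 1937 genes under 5 kb 638 were higher and 506 lower.

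The shortest genes were the most spread out. In the shortest decile, with a median of 1.46 kb, the middle 50% of genes lay between -1.99 and 1.27, and 329 of 952 were lower while 291 were higher. From the second decile on, the median decreased at every step, and was 0.43, 0.38, 0.24, 0.16, -0.04, -0.22, -0.51, -0.90 and -1.42. The ratio of washout over Adeno-Cre had a length trend of its own, with medians of 0.45, 0.35, 0.27, 0.24, 0.15, 0.07, 0.03, 0.01 and 0.01 over the same deciles and a rho of -0.25. Spearman's rho of the DRB ratio with length was -0.33 across the 9514 genes with a recovered length (Pearson's r with log2 length, -0.10). Across the 3047 genes with a mean of at least 50 TPM these were -0.09 and 0.10. Adeno-Cre cells also differed from untreated cells along gene length, with rho -0.54 for that ratio, and the part of this in the DRB comparison was not tested.

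Counts of reads, which weigh a gene by its length, give the same comparison as a share of all transcription in genes. Genes over 100 kb held 18.7% of the DRB reads and 38.0% of the Adeno-Cre reads, with 34.7% in washout and 43.8% in untreated cells. Genes of 50 to 100 kb held 14.8% in DRB and 20.1% in Adeno-Cre. Genes of 5 to 20 kb held 29.3% in DRB and 15.5% in Adeno-Cre, and genes under 5 kb 12.8% in DRB and 5.46% in Adeno-Cre. The washout shares of these shorter classes, 17.7% and 7.00%, lay near those of Adeno-Cre.

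**Figure D2:**
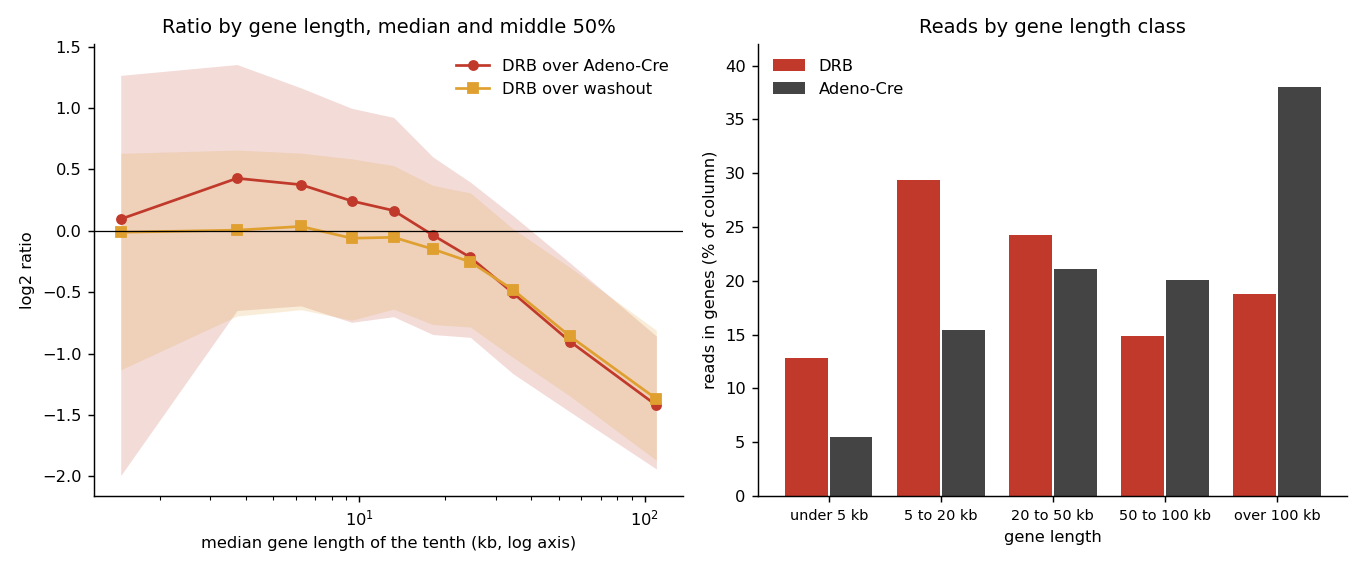
Left, median log2 ratio of DRB over Adeno-Cre and of DRB over washout in deciles of the genes tested by length (log axis, kb), with the middle 50% of genes shaded; both lines reach about -1.4 in the longest decile. Right, percent of reads in genes that fell into each length class, where genes over 100 kb held 18.7% in DRB and 38.0% in Adeno-Cre.

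Long genes of cell adhesion and signalling, many of them best known from neurons, were lower throughout. All 15 tested of the 50 listed were lower in DRB than in Adeno-Cre, against 29.8% of all genes, with a median of -1.71, and 14 were also lower than in washout. Lpp, a 599 kb gene for a focal adhesion protein, had 13.0 TPM (1083 reads) in DRB, 87.1 TPM (7737 reads) in Adeno-Cre and 68.1 in washout. That is 6.69-fold lower than in Adeno-Cre (counting interval 6.27 to 7.13). Cdh11, a cadherin of mesenchymal cells, was at 9.20 TPM in DRB and 52.1 in Adeno-Cre. Tead1, a transcription factor of the Hippo pathway, was at 12.7 TPM in DRB and 40.8 in Adeno-Cre. Set against genes of the same length decile, the median of these genes was only -0.29.

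The clustered protocadherins, adhesion proteins whose promoters are known targets of Ctcf, went the other way for their length. None of the 17 tested passed the 2-fold limit in either direction, and their ratios lay in a narrow band from -0.47 to -0.04, a median of 1.07 above genes of the same length. These nested genes share a span and exons, and so share reads. Pcdhga12 had 15 TPM in DRB and 18.6 in Adeno-Cre, and Pcdhgc3 29.9 TPM in DRB and 30.8 in Adeno-Cre.

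Genes of the fibroblast's own programme were among the lowest in DRB, and stood low also among genes of their own length. Fibroblasts build the extracellular matrix, and matrix and contractile genes are known to be transcribed strongly in them. Over all genes 29.8% were lower and 17.5% higher in DRB, and 23.1% were lower than in both references. Of 35 matrix genes tested of 47 listed, 32 were lower in DRB and none was higher. Their median log2 ratio was -1.86 against -0.25 for all genes, and -1.50 against genes of the same length. All 12 collagen genes tested were lower than in both references, with a median of -1.87. Of the 32 genes of the cytoskeleton and serum response 25 were lower and none higher, with a median of -1.61. Of 11 fibroblast markers 9 were lower and none higher, with a median of -2.25. These groups share members, such as Col1a1, Col1a2 and Col3a1 in the collagen and fibroblast marker groups, so they are not independent. The medians of these 4 groups kept their sign under the other scalings of the columns that were tried. Washout values were back near those of Adeno-Cre, with medians of washout over Adeno-Cre of 0.09 for matrix, 0.27 for collagen, 0.26 for cytoskeleton and 0.20 for fibroblast marker genes.

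Single genes made the size of this clear. Vim, the intermediate filament protein vimentin, had 50.8 TPM in DRB, 595 in Adeno-Cre and 489 in washout, and was 11.7-fold lower than in Adeno-Cre (counting interval 9.0 to 15.5). The DRB value stood far under both others for this gene of 8.52 kb. Col3a1, a fibrillar collagen chain, had 29.7 TPM in DRB, 295 in Adeno-Cre and 345 in washout, and was 9.95-fold lower (8.45 to 11.8). Fn1, fibronectin, had 34.0 TPM in DRB, 286 in Adeno-Cre and 366 in washout, and was 8.41-fold lower (7.49 to 9.47). Thbs1, the matrix glycoprotein thrombospondin, had 145 TPM in DRB, 960 in Adeno-Cre and 1293 in washout. In Col3a1, Fn1 and Thbs1 the DRB value was the lowest and the washout value somewhat above that of Adeno-Cre.

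Contractile and adhesion genes followed the same order. Vcl, vinculin of focal adhesions, had 26.0 TPM in DRB, 190 in Adeno-Cre and 257 in washout, and was 7.32-fold lower than in Adeno-Cre (6.57 to 8.17). Csrp1, a LIM protein of actin bundles, had 22.9 TPM in DRB, 168 in Adeno-Cre and 196 in washout. Acta2, smooth muscle actin, had 138 TPM in DRB, 803 in Adeno-Cre and 862 in washout. Actb, cytoplasmic actin, is known as a strong serum response target and was lower by less, at 633 TPM in DRB, 1703 in Adeno-Cre and 1847 in washout. Ppp1r10, a nuclear targeting subunit of protein phosphatase 1, lies outside these lists and was 9.22-fold lower (7.59 to 11.3), at 54.0 TPM in DRB, 498 in Adeno-Cre and 411 in washout. It was picked, like the other genes low against both references, by a rule set after values were seen.

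Loxl2 and Rock1 need their washout value beside the ratio. Loxl2, a collagen crosslinking enzyme, had 14.8 TPM in DRB and 748 in Adeno-Cre, but was only 3.38-fold lower in DRB than in washout. Rock1, a kinase of actomyosin contraction, had 5.96 TPM in DRB and 236 in Adeno-Cre, but 44.0 in washout. On the log2 scale most of the Loxl2 difference from Adeno-Cre was thus also present in the washout library. Untreated cells, which had no DRB, had 178 TPM of Loxl2 and 147 of Rock1, both under Adeno-Cre as well. The cause was not tested. Rock1 was 7.38-fold lower in DRB than in washout, and its washout value was also well under Adeno-Cre. Serpinh1, the collagen chaperone, was the matrix gene with the highest ratio, at 256 TPM in DRB and 208 in Adeno-Cre.

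**Figure D3:**
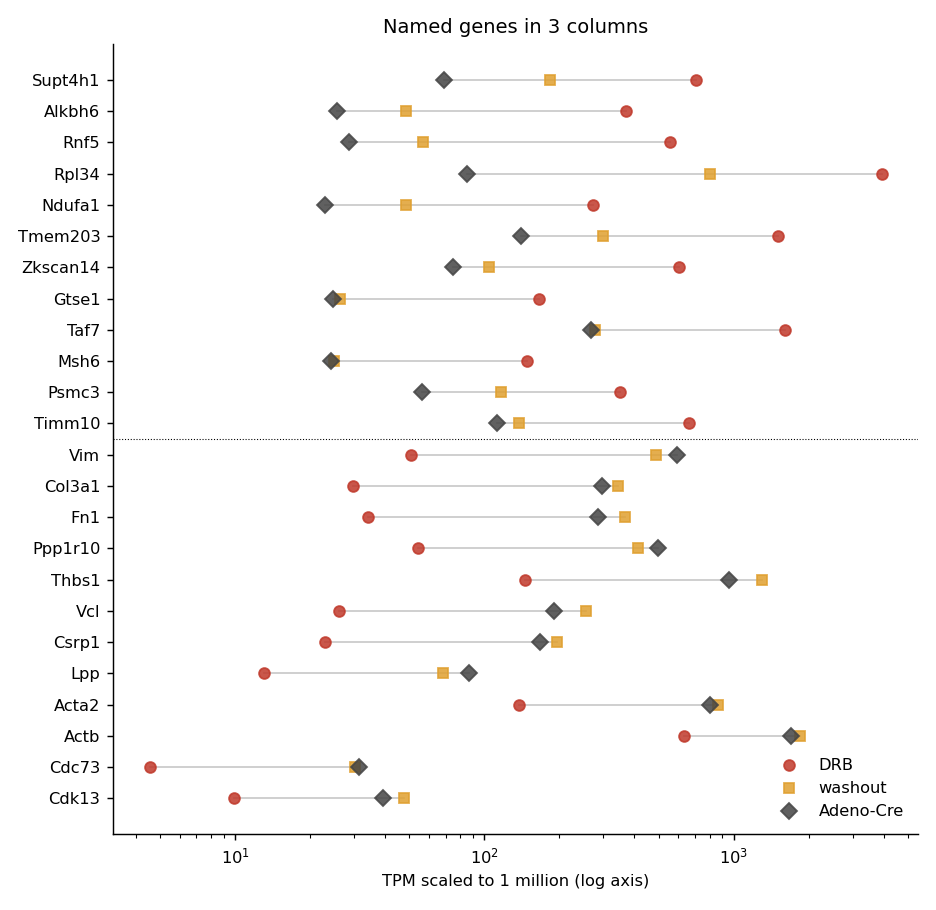
TPM scaled to a total of 1000000 (log axis) of 24 genes in DRB, washout and Adeno-Cre cells, with 12 genes that were higher in DRB above the dotted line and 12 that were lower below it. Vim had 50.8 in DRB, 489 in washout and 595 in Adeno-Cre, and Taf7 had 1611 in DRB, 277 in washout and 268 in Adeno-Cre.

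Several groups of housekeeping genes stood on the higher side. Of 85 cytoplasmic ribosomal protein genes tested, 56 were higher and 7 lower in DRB, against 17.5% higher among all genes, with a median of 1.38. They took 9.70% of the DRB column and 3.46% of the Adeno-Cre column. Their share stayed raised in washout, at 6.42%, and 13 were higher in DRB than in both references, against 7.24% of all genes. Rps2 had 5343 TPM in DRB, 1758 in Adeno-Cre and 3957 in washout, and Rps27a 5758 in DRB, 1535 in Adeno-Cre and 2842 in washout. Ribosomal protein genes have many processed copies in the genome, and how the authors placed such reads is not given in the sources used here. Rpl34, at 3929 TPM in DRB and 85.0 in Adeno-Cre, lies with the copy Rpl34-ps1 (4346 in DRB and 554 in Adeno-Cre), so its 46.2-fold ratio is uncertain.

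Genes for the mitochondrial respiratory chain, which makes ATP, and for the proteasome, which degrades proteins, held many higher members, fewer of them against washout. Of 81 respiratory chain genes 47 were higher and 3 lower in DRB than in Adeno-Cre, with a median of 1.43, and 30 were higher than in both references, against 7.24% of all genes. Against washout alone 31 of the 81 were higher, against 8.37% of all genes. Of 36 proteasome subunit genes 22 were higher and 1 was lower, with a median of 1.28, and 13 were higher against washout and against both. Set against genes of the same length the medians were 1.18 for the respiratory chain and 1.29 for the proteasome. Both stayed positive under the other scalings tried, as did that of the ribosomal protein genes. Ndufa1, a subunit of complex I, had 273 TPM in DRB, 22.9 in Adeno-Cre and 48.5 in washout, and was 11.9-fold higher (6.74 to 22.9). Ndufa2, of the same complex, had 1437 TPM in DRB, 218 in Adeno-Cre and 591 in washout. Psmc3, an ATPase of the proteasome cap, had 351 TPM in DRB, 56.0 in Adeno-Cre and 117 in washout, and was 6.27-fold higher (4.56 to 8.80).

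Other genes with a share well above both references were short to middling and had mixed roles. Alkbh6, a dioxygenase of the AlkB family, had 370 TPM in DRB, 25.5 in Adeno-Cre and 48.6 in washout, and was 14.5-fold higher than in Adeno-Cre (9.31 to 23.8). Rnf5, a ubiquitin ligase of the endoplasmic reticulum, had 556 TPM in DRB, 28.7 in Adeno-Cre and 56.5 in washout. Zkscan14, a zinc finger protein, had 602 TPM in DRB, 75.1 in Adeno-Cre and 105 in washout. For these 3 genes the washout value was nearer to Adeno-Cre than to DRB. Taf7, a subunit of the initiation factor TFIID, had 1611 TPM in DRB, 268 in Adeno-Cre and 277 in washout, and was 6.00-fold higher (5.05 to 7.18). Msh6, of DNA mismatch repair, had 148 TPM in DRB, 24.3 in Adeno-Cre and 25 in washout. Gtse1, a protein of the cell cycle, had 166 TPM in DRB, 24.8 in Adeno-Cre and 26.5 in washout. In these 3 the washout and Adeno-Cre values nearly coincided.

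The 15 highest ratios among genes with a mean of at least 50 TPM held Bola2, H2-Ke2, Rnaseh2c, Syngr2, Sf3b5, Ssr2, Dolk, Mrpl28, Tmem203, Thap11 and Rpl7 besides genes named above. All 15 were at least 2-fold over washout as well, against 569 of all 3047 genes with such a mean. Both ratios use the same DRB value, by which these genes were picked. In 13 of the 15 washout was itself at least 2-fold over Adeno-Cre, against 436 of the 3047. This ratio shares the Adeno-Cre value, by which the 15 were also picked, and a low one raises it. Bola2 and Rnaseh2c rest on 3 and 2 Adeno-Cre reads, with 94 and 39 in DRB, and their counting intervals run from 11.1 to 165 and from 5.40 to 178.

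Genes of pause release, the step that DRB blocks, did not stand apart as a list. Of 31 tested, 8 were higher and 10 lower in DRB, against 17.5% and 29.8% of all genes, with a median of -0.16 that was 0.09 when the median gene was set to 0. Cdk9, the kinase itself, had 61.8 TPM in DRB and 45.9 in Adeno-Cre (1.35-fold, counting interval 0.909 to 2.00). Its cyclins were lower within the 2-fold limit, Ccnt1 at 46.1 TPM in DRB and 67.1 in Adeno-Cre and Ccnt2 at 38.6 TPM in DRB and 43.3 in Adeno-Cre. Hexim1, which holds P-TEFb inactive, had 48.8 TPM (23 reads) in DRB, 127 TPM (64 reads) in Adeno-Cre and 110 in washout. Hexim2 was lower as well, at 15.4 TPM in DRB and 46.2 in Adeno-Cre. Mepce, the capping enzyme of the 7SK RNA in the same inactive complex, was higher, at 233 TPM in DRB and 67.0 in Adeno-Cre, and Larp7 was at 50.7 TPM in DRB and 26.3 in Adeno-Cre.

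The subunits of the pausing factors were split. Of DSIF, Supt4h1 had 704 TPM in DRB, 69.1 in Adeno-Cre and 183 in washout and was 10.2-fold higher (7.83 to 13.5), while Supt5h was at 19.7 TPM in DRB and 27.5 in Adeno-Cre. Supt4h1 is 6.05 kb long and Supt5h 23.8 kb. Of NELF, Rdbp had 85.6 TPM in DRB, 24.8 in Adeno-Cre and 24.1 in washout, and Cobra1 had 42.2 TPM in DRB and 21.3 in Adeno-Cre. Th1l was at 19.7 TPM in DRB and 17.3 in Adeno-Cre, and Whsc2 at 6.82 TPM in DRB and 13.5 in Adeno-Cre. Of the Paf1 elongation complex, Paf1 had 243 TPM in DRB, 64.4 in Adeno-Cre and 209 in washout, while Cdc73, a 95.2 kb gene, had 4.55 TPM in DRB, 31.3 in Adeno-Cre and 30.2 in washout. Several longer genes stood on the lower side, with Cdk13, a kinase of the polymerase tail, at 9.87 TPM in DRB and 39.1 in Adeno-Cre. Polr2a, the largest subunit of the polymerase, had 34.2 TPM in DRB, 76.7 in Adeno-Cre and 40.0 in washout. Length did not order the whole list. Ell, an elongation factor of 53.2 kb, was higher, at 49.1 TPM in DRB and 17.8 in Adeno-Cre. Supt6h, of 39.0 kb, was higher too, at 47.0 TPM in DRB and 21.1 in Adeno-Cre, while Hexim1, of 3.40 kb, was lower.

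**Figure D4:**
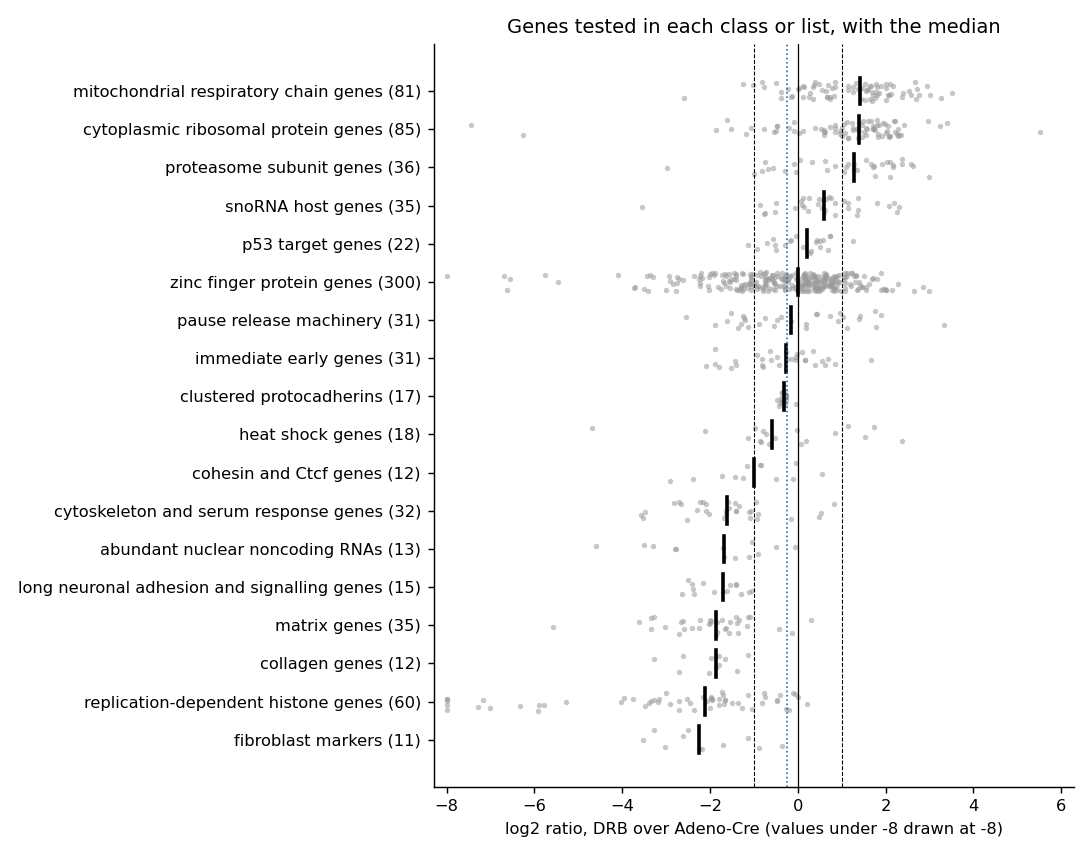
Log2 ratio of DRB over Adeno-Cre for the genes tested of 18 classes and lists (number of genes in brackets), with a black bar at the median of each. The dotted line marks the median of all genes tested, -0.25, and the dashed lines the 2-fold limits; medians run from 1.43 for the respiratory chain to -2.25 for fibroblast markers.

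Stress and signalling lists are set against 17.5% higher and 29.8% lower genes among all tested. Of 22 p53 target genes 1 was higher and 1 lower in DRB, with a median of 0.20 that was below 0 with the total taken without small RNA and histone genes (-0.36). Cdkn1a, the p21 cell cycle inhibitor, had 464 TPM in DRB, 663 in Adeno-Cre and 445 in washout, and Mdm2, the p53 ubiquitin ligase, 517 in DRB, 476 in Adeno-Cre and 265 in washout. Of 31 immediate early genes, which answer growth signals within minutes, 1 was higher and 7 were lower, with a median of -0.28. Compared with washout 11 of them were lower, against 27.2% of all genes. Ctgf, a matrix growth factor, had 385 TPM in DRB, 1634 in Adeno-Cre and 1638 in washout, whereas Gadd45b had 1306 in DRB, 1223 in Adeno-Cre and 1921 in washout. Of 18 heat shock genes 4 were higher and 3 lower. Hspb1, a small chaperone, had 43.8 TPM in DRB, 1149 in Adeno-Cre, 112 in washout and 332 in untreated cells, so that the Adeno-Cre value stood above all others. Of 35 host genes of small nucleolar RNAs 11 were higher and 1 lower, with a median of 0.59, and against washout the median was -0.01.

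Metabolic, interferon, cohesin and zinc finger genes were counted in the same way, against 17.5% higher and 29.8% lower among all genes. Of 17 glycolysis genes 2 were higher and 4 lower in DRB than in Adeno-Cre, with a median of -0.38. Gapdh had 475 TPM in DRB, 146 in Adeno-Cre and 484 in washout, 3.25-fold higher than in Adeno-Cre (2.53 to 4.20) and 1.02-fold lower than in washout. Hsp90ab1, a cytosolic chaperone, had 477 TPM in DRB, 217 in Adeno-Cre and 486 in washout. Washout and DRB values of both genes nearly coincided. Of 29 interferon response genes 4 were higher and 6 lower, with Tap1, a peptide transporter of antigen presentation, at 122 TPM in DRB, 25.1 in Adeno-Cre and 20.8 in washout, and Isg15, a ubiquitin-like protein, at 31.0 TPM in DRB, 138 in Adeno-Cre and 134 in washout. Of 12 genes of cohesin and its partners 6 were lower and none higher, with a median of -1.01, and against genes of the same length the median was 0.05. Of 300 zinc finger protein genes 41 were higher and 80 lower, near the shares over all genes.

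Long noncoding RNAs of the nucleus were mostly lower. Of 13 tested 10 were lower in DRB, against 29.8% of all genes, and none higher, with a median of -1.68. Lower than in both references were 8, against 23.1% of all genes. Malat1, of nuclear speckles, had 2179 TPM in DRB, 4488 in Adeno-Cre and 2691 in washout. Neat1, of paraspeckles, had 1282 TPM in DRB, 4111 in Adeno-Cre and 2472 in washout.

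Polymerase III transcripts, whose synthesis DRB is not known to hold at the pause, stood within the limits. All 3 tested were higher by less than 2-fold under the total used here, with a median of 0.24 that was -0.08 with the total taken without small RNA and histone genes. The RNase MRP RNA gene Rmrp had 498 TPM (19 reads) in DRB and 421 TPM (18 reads) in Adeno-Cre, 1.18-fold with a counting interval from 0.588 to 2.39. Vaultrc5, a vault RNA, had 1338 TPM in DRB, 1154 in Adeno-Cre and 1359 in washout. The polymerase I transcript Rn45s had 1528 TPM in DRB, 2458 in Adeno-Cre, 2715 in washout and 16697 in untreated cells.

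Replication-dependent histone genes, which are short, lack introns and are usually silent outside S phase, took 4.82% of the DRB column and 17.4% of the Adeno-Cre column. Of 60 tested 48 were lower in DRB, against 29.8% of all genes, and none higher, with a median of -2.13. In washout cells, however, they took 6.94% and in untreated cells 7.27%, so the Adeno-Cre column stood apart from all others. Compared with washout 20 were lower and 1 was higher, against 27.2% and 8.37% of all genes, with a median of -0.65. Hist1h4c, the most abundant, had 9222 TPM in DRB, 30585 in Adeno-Cre, 11732 in washout and 10650 in untreated cells. Near-identical histone copies may also exchange reads. Hist1h4j and Hist1h4k had no read in DRB, 271 and 281 reads in Adeno-Cre and 16.5 TPM each in washout, and were at least 84.5-fold and 83.5-fold lower against a floor of 3 reads in the DRB library. The 8 histone variants with polyadenylated messages had 2 higher and 3 lower members, against 17.5% and 29.8% of all genes. Among them H2afx was at 3072 TPM in DRB and 874 in Adeno-Cre, and H3f3b at 164 TPM in DRB and 1605 in Adeno-Cre.

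The highest values belonged to short genes of several kinds, of which only some were very small RNAs. The 10 highest of the DRB column took 14.1% of it, among them Mir1983, Rnu11, Snhg8, Hist1h4c and Rps27a. The 10 highest of the Adeno-Cre column took 19.1% of it, among them Rnu12, Mir1983, Snhg8, Mt1 and several histone genes. Mir1983, the highest in DRB, had 31575 TPM in DRB, 26354 in Adeno-Cre and 28694 in washout, a similar share in each. Rnu12, the U12 RNA of the minor spliceosome, had 1683 TPM in DRB, 60820 in Adeno-Cre, 2279 in washout and 11893 in untreated cells. Rnu11, its partner, had 28910 TPM in DRB, 5120 in Adeno-Cre, 42419 in washout and 3404 in untreated cells. For both, DRB and washout stood together and apart from the other columns. Small nucleolar RNAs took 3.91% of the DRB column and 4.47% of Adeno-Cre, and microRNA precursors 5.17% and 4.81% of these columns, on 1433 and 1776 reads. Of 94 microRNA precursors tested 59 were called lower, against 29.8% of all genes. Their median of -6.16, however, is set by genes without a read in DRB. With at least 3 reads set in both columns for genes without a read in 1 of them, the median was 0.10. That is the ratio which 3 reads in each column give, so it is not a measured median. In all, 238 of the 9515 genes had no read in DRB, of which 108 were under 1 kb, 153 had fewer than 20 reads in Adeno-Cre and 72 had none in washout either.

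The 15 lowest ratios by the naming rule were low in more than the DRB column, and all 15 were also under 10% of the Adeno-Cre value in washout. The ratio of washout over Adeno-Cre shares the Adeno-Cre value by which these genes were also picked. They include 6 histone genes besides Hist2h3c1, and Ctrc, Orai2, Zfp488, Tyms-ps, Crp, Rpl31-ps12 and the olfactory receptor loci Olfr613 and Olfr856-ps1. Ctrc, a pancreatic protease, had no read in DRB, 3403 TPM (4297 reads) in Adeno-Cre, 0.846 in washout and 725 in untreated cells. Orai2, a calcium channel subunit, had 8.08 TPM in DRB, 2464 in Adeno-Cre, 11.8 in washout and 332 in untreated cells. Over all genes open to the rule, 40 of the 317 lower ones with a mean of at least 50 TPM were under 10% of the Adeno-Cre value in both DRB and washout. For these genes too, an effect of the drug and a difference between the libraries or the reads counted for them cannot be told apart.

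The promoters of genes with a higher share held a different letter content. A string of 7 letters, CCGGAAG on either strand, the core bound by Ets family factors, was searched in the 300 bases from 250 before to 50 after the annotated start, from RefSeq on the GRCm38.p6 build. The string was chosen after values were seen, and 7494 genes tested had a promoter in the table. It was in 32.9% of 1339 higher genes, 22.1% of 4011 genes with neither call, 11.7% of 2144 lower genes and 9.12% of all 27025 promoters. The order held within length classes, at 34.3%, 15.9% and 4.81% of higher, neither and lower genes under 5 kb. For 5 to 20 kb it was 31.8%, 23.1% and 11.1%, and for 20 to 50 kb 33.3%, 25% and 14.9%. Among the genes called against both references it was in 33.8% of the higher and 10.8% of the lower ones. TATAAA within 50 bases before the start ran the other way, in 0.971% of higher, 1.42% of neither and 2.61% of lower genes, against 2.88% of all promoters. GGGCGG on either strand, the core bound by Sp1, was in 61.7%, 68.1% and 65.3% of these genes and in 35.9% of all promoters, and CCAAT on either strand in 41.1%, 39.9% and 38.9%, against 37.9%. Matches of these strings can overlap each other.

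The promoters of 7 named genes show these strings in place, from 150 bases before to 50 after the start, 5′ to 3′ on the gene's strand, with the Ets, Sp1 and TATA strings above, on either strand, in capitals. The first 4 were higher in DRB than in both references or among the 15 highest ratios: Thap11, a transcription factor (chr8:105854953-105855152), Timm10, of mitochondrial protein import (chr2:84826871-84827070), Gtse1 (chr15:85859557-85859756) and Alkbh6 (chr7:30308603-30308802), all on the plus strand of GRCm38.p6.
Thap11: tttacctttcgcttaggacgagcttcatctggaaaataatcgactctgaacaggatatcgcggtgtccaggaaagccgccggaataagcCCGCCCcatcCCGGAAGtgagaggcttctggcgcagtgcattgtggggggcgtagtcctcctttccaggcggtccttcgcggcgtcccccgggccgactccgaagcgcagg
Timm10: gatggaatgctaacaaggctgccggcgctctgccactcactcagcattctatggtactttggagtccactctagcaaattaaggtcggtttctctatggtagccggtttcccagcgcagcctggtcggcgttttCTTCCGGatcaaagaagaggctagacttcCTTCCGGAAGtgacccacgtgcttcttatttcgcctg
Gtse1: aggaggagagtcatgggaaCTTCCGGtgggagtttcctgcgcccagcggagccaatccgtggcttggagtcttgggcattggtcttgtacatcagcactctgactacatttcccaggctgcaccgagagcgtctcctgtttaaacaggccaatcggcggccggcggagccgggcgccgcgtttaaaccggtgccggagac
Alkbh6: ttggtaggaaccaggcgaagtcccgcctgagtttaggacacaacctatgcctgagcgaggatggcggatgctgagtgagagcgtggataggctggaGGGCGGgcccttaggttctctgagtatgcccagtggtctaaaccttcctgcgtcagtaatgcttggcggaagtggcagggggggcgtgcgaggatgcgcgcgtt
The other 3, Vim (chr2:13574161-13574360), Vcl (chr14:20929248-20929447) and Csrp1 (chr1:135729017-135729216), on the same strand and build, were lower than in both references.
Vim: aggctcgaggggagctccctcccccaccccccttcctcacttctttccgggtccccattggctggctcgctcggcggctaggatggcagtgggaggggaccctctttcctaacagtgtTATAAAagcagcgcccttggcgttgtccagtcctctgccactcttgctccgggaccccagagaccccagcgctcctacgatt
Vcl: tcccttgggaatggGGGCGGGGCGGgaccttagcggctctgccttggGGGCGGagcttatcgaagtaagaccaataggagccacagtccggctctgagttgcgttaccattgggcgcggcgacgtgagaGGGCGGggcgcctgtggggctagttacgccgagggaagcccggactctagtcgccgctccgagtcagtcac
Csrp1: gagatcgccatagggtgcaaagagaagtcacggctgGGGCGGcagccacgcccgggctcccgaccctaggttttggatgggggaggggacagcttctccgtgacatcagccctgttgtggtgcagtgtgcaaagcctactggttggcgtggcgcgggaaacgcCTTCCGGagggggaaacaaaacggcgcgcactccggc
Thap11, Timm10 and Gtse1 hold CCGGAAG in this window, Timm10 at 3 places of which the last pair share letters, and Alkbh6 does not. The higher genes shown are not typical of those picked by the same rules. Of the others with a promoter listed, only H2-Ke2 held CCGGAAG in the longer window searched above. Bola2, Ddx41, Dnajc9, Dolk, Fam165b, Mrpl28, Msh6, Ndufa1, Prpf31, Rnaseh2c, Rpl34, Rprm, Ruvbl2, Syngr2, Tap1 and Tmem203 did not. Vim holds TATAAA just before the start, Vcl holds GGGCGG more than once, and Csrp1 is a lower gene that does hold CCGGAAG. A match describes the letters and is no sign that a factor was bound.

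Messenger RNA levels of the same kind of cells without DRB give the setting of these calls. In Adeno-Cre cells of clone 4 the median level was 18.1 RPKM for genes called higher in DRB, 12.0 for genes with neither call and 7.63 for genes called lower. Among genes under 5 kb the lower ones had a median of 0.635 RPKM and the higher ones 18.4. Among genes over 100 kb the 434 lower ones had 12.8 RPKM and the 151 with neither call 9.57. Vim and Fn1 were abundant messages, at 2670 and 2911 RPKM, while Hist1h4j was at 1.52 RPKM in these poly(A) libraries.

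Genes that overlap a gene on the other strand in RefSeq made up 24.1% of the higher, 19.9% of the neither and 16.9% of the lower genes placed. Of the genes described with values, Ccnt1, Cdc73, Lpp, Msh6, Ndufa1, Rps2, Supt6h and Vcl have such a partner. Their reads may include it if strand was not used in counting. Markers of other cell types were a small part of each column. Of 20 listed macrophage markers 6 were tested, of which 1 was higher, 1 lower and 4 neither, against 17.5% higher and 29.8% lower among all genes. The list summed to 0.02% of the column in DRB and 0.04% in Adeno-Cre. Cd68, the lower one, had 34.1 TPM in DRB and 205 in Adeno-Cre, and Mpeg1 28.8 in DRB and 22.5 in Adeno-Cre. Single markers of other lists were also detected, with the muscle actin Acta1 at 31.6 TPM in DRB and 158 in Adeno-Cre. Of 2 neural markers tested 1 was lower and 1 higher, too few to set against the shares over all genes. The neuronal tubulin Tubb3 was at 13.8 TPM in DRB and 71.7 in Adeno-Cre. Sox2 was at 47.0 TPM (16 reads) in DRB and 22.0 TPM (8 reads) in Adeno-Cre. The part of these genes in the results was not tested. The endothelial, epithelial, muscle and neural lists took at most 0.02% in either column. The fibroblast markers themselves took 0.04% in DRB and 0.21% in Adeno-Cre, and fewer fibroblasts and less nascent RNA per fibroblast cannot be told apart in such bulk libraries.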

How the data were processed

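Nascent RNA was measured by GRO-seq in the libraries described above. The authors deposited TPM values per gene, which correct for gene length and library, with the 2 Adeno-Cre and the 2 untreated libraries pooled into a column each. In the pooled columns, plus-strand and minus-strand genes each summed to 100000, so each strand's genes had been scaled apart. In the DRB column minus-strand genes summed to 52512 and plus-strand genes to 47488, so both had been scaled together. The authors also deposited RPKM values of poly(A) RNA, of which 3 of 27 columns were used. The submitters' processing notes name the mm9 build, TopHat 1.3.1 and 1.4.1, Bowtie 0.12.5, HTSeq and bedtools, without saying which file each was used for. How reads at several places were treated, and whether counting used strand, is not given in the sources used here.

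Each TPM column was scaled to a total of 1000000 and 3 symbols with repeated rows were averaged. Reads and gene lengths were recovered from the deposited TPM values, since a value is a whole number of reads divided by the length. A result within 0.002 of a whole number was taken as whole, and 19878 of 19879 rows with a value were resolved. Where the RefSeq span (GRCm38.p6) was a whole multiple of the length found, within 2%, the multiple was taken (909 rows). The recovered length was within 20% of the RefSeq span for 90.7% of the genes tested. Lengths thus come from the values and not from an annotation of the authors' build, and they are spans of the counted gene. Ratios are log2 with 1 added, and a fold of 2 was the limit of a call. Genes were compared with the median of their own length decile where the text says so.

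Members, gene lists and classes were chosen with earlier results of these data known, so no list is independent evidence. Genes named are the 15 highest and 15 lowest ratios with a mean of at least 50 TPM, leaving out predicted, microRNA and small noncoding genes, the 10 highest values of each column, up to 4 abundant members of each list, the pause release genes, and Ctcf and Wapl. The 20 highest and 20 lowest by the smaller of both ratios, over Adeno-Cre and over washout, were added after values were seen. The steps were tested on simulated data. Python 3.11.15, pandas 2.3.3, numpy 2.4.6, scipy 1.17.1 and matplotlib 3.10.9 were used.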

Additional observations from a re-analysis of the deposited data

How the results depend on the processing

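No paired analysis was possible because each side is a single column, and leaving out a replicate was not possible because the Adeno-Cre column pools its libraries. The gap between the longest and the shortest quintile of genes (-1.46) kept its sign under every setting run, from -2.97 with the untreated column as the reference to -0.46 with a mean of at least 50 TPM. It was -1.20 with 5 added to the values, -1.26 without a filter, -1.82 between the fixed classes over 100 kb and under 5 kb, and, in settings added after values were seen, -1.04 over washout, -1.77 with at least 20 reads and -2.50 with at least 200 reads in both columns together. The count of lower genes (2835) was 8965 without a filter, 435 with a mean of at least 50 TPM, 4902 with the total taken without the 1% highest genes, 4665 without small RNA and histone genes, 5846 against the untreated column and 5832 with at least 20 reads. The count of higher genes (1665) was 777 for the ratio of DRB over washout, with genes tested on the mean of DRB and washout. It stayed within 1.5 times under the other settings. The median of all genes (-0.25) was -0.82, 0.68, -0.68, -0.73, -1.14 and -0.75 under the 6 settings listed for lower genes, 0 by construction when centred, and -0.32 over washout. Scaling both strands' genes together changed no count by over 1.5 times. Among 34 class and list medians, antisense and host noncoding transcripts (-1.25) turned to 0.18 with a mean of at least 50 TPM and microRNA precursors (-6.16) to 0.26 with at least 20 reads. The 0.26 is the ratio of Mir1983, the middle gene of the precursors left. Among 224 named genes, 9 that were past the 2-fold limit had the opposite sign in another setting; genes within the limit also turned sign and are not counted. Against the untreated column Mt1 (-1.72) turned to 2.83, Cldn4 (-1.30) to 4.64 and Supt6h (1.12) to -0.33. Over washout Rnu11 (2.50) turned to -0.55, Epcam (-1.58) to 0.86, Aldoa (1.06) to -0.049, Gapdh (1.69) to -0.027, Hsp90ab1 (1.13) to -0.027 and Irgm1 (-1.16) to 0.030. Where a filter or the reference column changed, the genes or cells compared changed with it; the cause of the other shifts was not tested. Of the 238 genes without a read in DRB, 153 had under 20 reads in Adeno-Cre, too few for a firm ratio.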
